A study of Mus musculus with 30 samples.

Results

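Tumours grown from unmodified MC38 cells were compared after an antibody against PD-1 and after a control antibody, across all expressed genes. MC38 is a mouse colon carcinoma line, and the comparison rests on the 10 libraries whose titles give the genotype WT, 5 with the PD-1 antibody (aPD1) and 5 with IgG1, of the 30 libraries in the series. The other 20 libraries came from MC38 tumours with mutated B2m (B2mKO) or Jak1 (Jak1KO), 5 for each genotype and antibody, and are used here to estimate the spread and for a single comparison of effects. All hosts were female C57BL/6 mice aged 6 to 8 weeks. They carried the cells under the skin, were given 100 µg of antibody into a vein on days 7, 10 and 13 after inoculation, and had about 50 mg of tumour taken on day 14. The mutations are in the injected cells, so the host cells of every tumour still carry both genes. The clone of the antibody, whether each mutant line is a single clone and whether each library came from a separate mouse are not given in the sources used here, so p-values reflect only how much these libraries vary, which may in part be technical.

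PD-1 is an inhibitory receptor that activated T cells place on their surface. When it binds its ligands PD-L1 or PD-L2, signalling through the T cell receptor and CD28 is dampened, and antibodies that block the receptor relieve that brake. Released T cells secrete interferon gamma, which acts through JAK1 and JAK2 in tumour and host cells and induces antigen presentation, chemokines, cell-autonomous defence genes and PD-L1 itself.

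Total counts per WT library were 17833233 to 25658875. Levels are given as CPM, counts scaled to the size of the library after TMM scaling, and per-library values below are given in the order of replicates 1 to 5. Changes are log2 fold changes (aPD1 over IgG1) ± standard error from edgeR's quasi-likelihood test fitted to all 30 libraries, and a gene is called higher or lower where its Benjamini-Hochberg adjusted p over the 15505 genes tested was under 0.05. IgG1 replicate 3 stood apart from the other 9 WT libraries. The correlation of its log2 CPM with its group was 0.9607, against 0.982 to 0.9943 for the others. Long genes were low and short genes high in it. The shortest quintile of genes (up to 2055 bases of exon) deviated from the other IgG1 libraries by a median of 0.387 on the log2 scale and the longest quintile (at least 7159 bases) by -0.503. This difference of 0.89 compares with -0.345 to 0.316 in the other WT libraries. Counts of called genes in a list often moved when a single library was left out, and for most lists with called genes the range over the 10 fits that each left out a WT library stands beside the count. Counts were made without regard to strand, so reads of genes that overlap cannot be told apart or were dropped. Among the genes named that were called, exon bases shared with another gene were highest in Il12rb2 (40.0%), Foxp3 (31.5%), Il2rg (30.5%), Ifng (25.9%), Mest (23.1%) and Tgm2 (21.8%). Sharing was not looked at in named genes that were not called.

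The defining markers show which cells the pieces of tumour held. Macrophage transcripts were abundant, with C1qa at 141 to 781 CPM with IgG1 and 397 to 816 CPM with aPD1. Fibroblast transcripts were abundant as well, with Dcn at 560 to 2004 CPM and 537 to 922 CPM. T cell and natural killer cell transcripts were sparse, with Cd3e at 0.333 to 1.22 CPM and 0.612 to 3.81 CPM, and Ncr1 at 0.264 to 0.667 CPM and 0.669 to 1.19 CPM. The neutrophil marker Ly6g was at 0 in 9 of the 10 libraries, and the B cell marker Ms4a1 did not exceed 0.278 CPM in any. The epithelial markers Epcam and Krt8 were at or below 0.221 CPM in every IgG1 library and reached 1.36 and 4.26 CPM in aPD1 replicate 3. Skeletal muscle transcripts varied widely within both groups, with Acta1 at 10.8, 319, 13.9, 2.68 and 73.6 CPM with IgG1 and 0.276, 162, 0.0905, 26.5 and 6.26 CPM with aPD1. In bulk tissue, more cells of a type and more RNA per cell cannot be told apart.

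With aPD1, 579 genes were higher and 100 lower than with IgG1. These are 3.73% and 0.645% of the 15505 genes tested, and 4.38% changed in either direction. The higher and lower shares are the background for each list count below. Genes of interferon gamma signalling, antigen presentation, cytokine receptors and leukocyte adhesion were among those that rose, and genes of resident macrophages, pericytes and fibroblasts among those that fell. The median change was 1.14 among higher genes and -0.57 among lower genes, so the falls were shallower, and 344 higher but only 29 lower genes changed by at least 1 on the log2 scale. The median of all genes tested was -0.03, and 45.9% of the estimates were positive. Of the 679 called genes, 521 belong to none of the 63 gene lists used here.

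A fit of the 10 WT libraries alone estimates the spread from these tumours only, and it left far fewer calls. It called 52 genes higher and 3 lower (0.362% and 0.0209% of the 14358 genes it tested), with adjusted p between 0.0401 and 0.0484, while 1613 genes had an unadjusted p under 0.05. Of these 55 genes, 51 were also called in the 30-library fit, and the other 4 were Cxcl9, Prf1, Slc7a2 and Ccl8. By list, the 10-library fit called 11 of 36 interferon gamma response genes higher, 3 of 17 checkpoint and exhaustion genes and 2 of 38 cytokine receptor genes. It called no gene of the class I, class II, conventional dendritic cell, complement, lysosome or cholesterol efflux lists. The ranges below, with a WT library left out, come from the 30-library fit and still use the knockout libraries for the spread. The 10-library count is not stable. It was 0 when any of 8 libraries was left out, 563 without aPD1 replicate 4 and 100 without IgG1 replicate 4. DESeq2 called 577 genes in the same 10 libraries, and limma voom called 0, with 1622 at an unadjusted p under 0.05.

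Whether the libraries of the groups overlap does not depend on a model. All 5 aPD1 libraries lay above all 5 IgG1 libraries in 185 genes (1.19%) and below them in 99 genes (0.639%). Among the 679 called genes, 118 higher and 42 lower genes were separated in this way. Of the 51 genes called in both fits, 40 were separated. Both sets of called genes were chosen from these same libraries, so their separation is a description and not a separate check. In the 30-library fit, 206 higher and 11 lower genes (1.33% and 0.0709%) stayed past the threshold in each of the 10 fits that left out a WT library. The count of calls in those fits was 367, 230, 534, 1107 and 388 without aPD1 replicates 1 to 5 and 349, 535, 681, 918 and 377 without IgG1 replicates 1 to 5, and no called gene changed sign in any of them.

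The aPD1 libraries differed in how far they had moved, and replicate 4 had moved least. Over the 579 higher genes its median difference from the IgG1 mean was 0.311 on the log2 scale, against 1.25, 1.57, 1.07 and 1.20 in replicates 1, 2, 3 and 5. It was the lowest of the 5 aPD1 libraries in 548 of these genes and lay within the IgG1 range in 446 (77%). Replicate 2 was the highest in 431. Among the controls, IgG1 replicate 4 was the highest library in 315 of the 579 genes. For the 100 lower genes, aPD1 replicate 4 was the highest of its group in 59 and lay within the IgG1 range in 45. These counts describe genes chosen from the same libraries. The labels give nothing that sets aPD1 replicate 4 or IgG1 replicate 4 apart. The count table of aPD1 replicate 2 is the only one of the 10 whose header names an alignment under a different name, and its place in the group rests on the labels. Among the aPD1 libraries, the macrophage and monocyte list was lowest in replicate 4 (-0.24 on the log2 scale against the IgG1 mean) and highest in replicate 2 (0.95). The controls did not follow this pattern, with the list at -1.21, -0.64, 0.94, 0.17 and -0.18 in IgG1 replicates 1 to 5. IgG1 replicate 3 was thus near aPD1 replicate 2 in this list. Over the 579 higher genes its median difference from the aPD1 mean was -0.961. The part of macrophage transcripts in the changes was not tested.

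**Figure D1:**
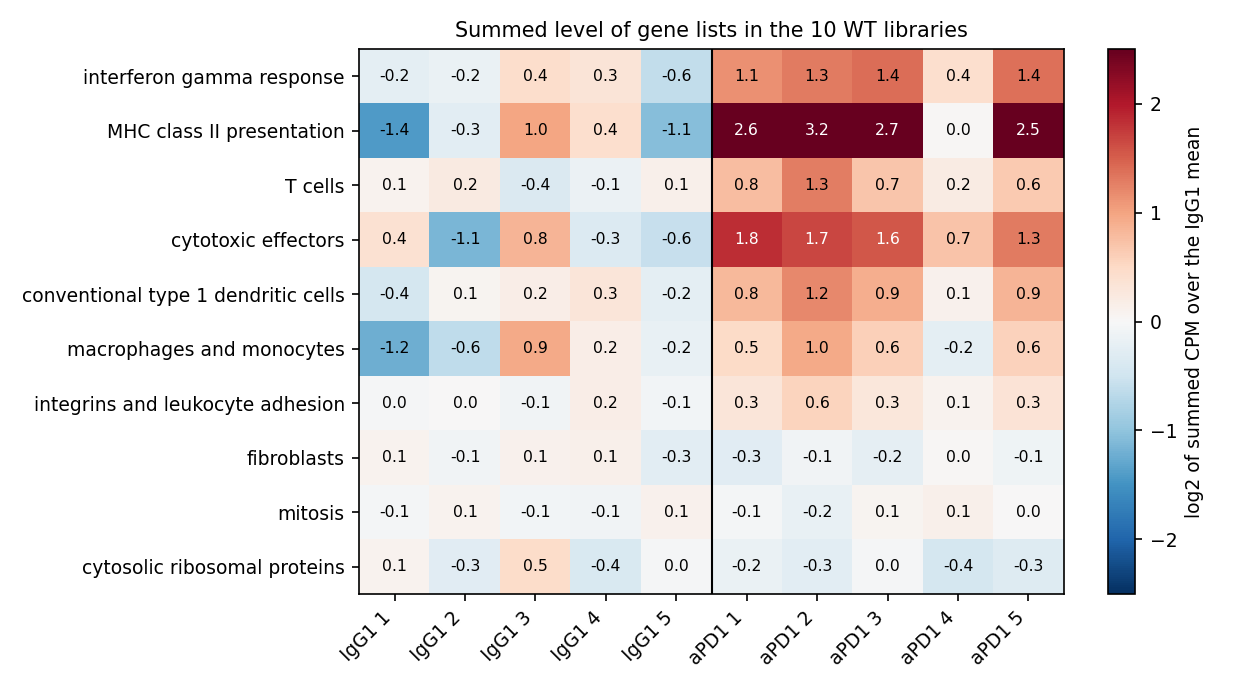
Summed CPM of 10 gene lists in each of the 10 WT libraries, as the log2 ratio to the IgG1 mean (printed values, with colours that saturate at the ends of the scale). In aPD1 replicate 4 the interferon gamma response list stood at 0.42 and the class II list at 0.03, against 1.14 to 1.40 and 2.53 to 3.19 in the other 4 aPD1 libraries, while the fibroblast, mitosis and ribosomal lists stayed within 0.5 of 0 in every library.

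Interferon gamma and its targets were higher. Of the 36 genes of the interferon gamma response list, 29 rose, none fell and 7 did not pass, with a median change of 1.23. Between 24 and 31 of them passed when a WT library was left out, and 11 were higher in the 10-library fit. Ifng itself (ENSMUSG00000055170, chromosome 10, 118441046 to 118445892), a product of activated T and natural killer cells, was at 0.211, 0.166, 0.389, 0.413 and 0.132 CPM with IgG1 and 4.91, 5.15, 5.43, 0.753 and 3.43 CPM with aPD1. The groups did not overlap, and aPD1 replicate 4 was the lowest of its group. The change was 3.91 ± 0.67 (edgeR adjusted p = 0.00118; 0.0401 in the 10 libraries alone). Cd274, which encodes PD-L1 (ENSMUSG00000016496, chromosome 19, 29367455 to 29388095), was at 33.6, 34.2, 41.6, 52.6 and 26.2 CPM with IgG1 and 197, 161, 139, 59.4 and 177 CPM with aPD1. Every aPD1 library was above every IgG1 library, the nearest pair being IgG1 replicate 4 and aPD1 replicate 4, and the change was 1.96 ± 0.29 (edgeR adjusted p = 0.000951; 0.0401 in the 10 libraries). Pdcd1lg2, which encodes the second ligand PD-L2, rose by 3.43 ± 0.58 from much lower levels, from 0.464, 0.332, 0.5, 0.258 and 0.308 CPM to 7.11, 5.81, 4.07, 0.518 and 3.03 CPM (edgeR adjusted p = 0.00128).

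The guanylate-binding proteins (Gbp) and the immunity-related GTPases (Irgm1, Igtp, Tgtp1) are interferon-induced GTPases of cell-autonomous defence. Gbp5, Gbp7, Igtp, Irgm1 and Tgtp1 were all among the 51 genes called in both fits. The 250 bases before the transcription start of these 5 genes are shown because the genes moved together and the windows hold motifs that factors of this pathway are known to bind. The 5 were chosen with their values and matches seen. Capitals mark matches to TTCNNNGAA, the letters of the gamma-activated site, and to GAAANNGAAA on either strand (TTTCNNTTTC), the core of the interferon-stimulated response element. Sequences are from RefSeq on GRCm38.p6 and read 5′ to 3′ on the gene's strand.
Gbp5 (chr3:142496684-142496933, plus strand): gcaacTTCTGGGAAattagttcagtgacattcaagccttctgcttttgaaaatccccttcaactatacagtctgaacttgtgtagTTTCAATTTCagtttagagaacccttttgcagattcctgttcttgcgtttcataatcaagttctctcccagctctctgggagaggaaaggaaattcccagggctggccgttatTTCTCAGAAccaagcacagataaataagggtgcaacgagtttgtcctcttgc
Gbp7 (chr3:142530086-142530335, plus strand): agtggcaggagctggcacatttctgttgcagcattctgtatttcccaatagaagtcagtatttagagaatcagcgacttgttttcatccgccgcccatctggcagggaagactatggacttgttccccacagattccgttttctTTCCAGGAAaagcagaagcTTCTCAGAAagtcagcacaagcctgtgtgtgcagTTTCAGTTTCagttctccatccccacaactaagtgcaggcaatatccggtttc
Igtp (chr11:58199306-58199555, plus strand): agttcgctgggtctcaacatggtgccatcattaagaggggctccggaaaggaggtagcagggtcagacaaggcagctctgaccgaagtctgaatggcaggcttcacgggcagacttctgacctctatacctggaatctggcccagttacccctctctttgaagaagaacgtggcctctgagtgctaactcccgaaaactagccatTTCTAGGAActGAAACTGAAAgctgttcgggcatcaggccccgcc
Irgm1 (chr11:48871421-48871670, minus strand): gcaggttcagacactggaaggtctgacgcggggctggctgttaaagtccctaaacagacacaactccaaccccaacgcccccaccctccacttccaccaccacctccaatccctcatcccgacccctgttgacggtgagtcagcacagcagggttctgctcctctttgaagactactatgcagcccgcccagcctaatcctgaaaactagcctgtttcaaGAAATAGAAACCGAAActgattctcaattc
Tgtp1 (chr11:48992247-48992496, minus strand): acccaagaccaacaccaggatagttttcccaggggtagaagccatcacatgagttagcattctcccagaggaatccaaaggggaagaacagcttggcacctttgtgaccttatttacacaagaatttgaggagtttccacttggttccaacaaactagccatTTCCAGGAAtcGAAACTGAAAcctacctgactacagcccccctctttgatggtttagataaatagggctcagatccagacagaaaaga

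In Igtp and Tgtp1 the motifs form an adjacent pair that starts 45 and 34 bases, and 88 and 77 bases, before the start site. Irgm1 holds 2 overlapping copies of GAAANNGAAA at 30 and 24 bases. Gbp7 has TTCNNNGAA at 106 and 87 bases and TTTCNNTTTC at 53, and Gbp5 has TTCNNNGAA at 245 and 52 bases and TTTCNNTTTC at 165. TTCNNNGAA was found in the windows of 8.13% of the 27025 genes in the promoter table, 7.13% of the 11025 tested genes with a window, 13.2% of 431 higher genes and 11.8% of 76 lower genes. GAAANNGAAA was found in 3.46%, 3.46%, 10.9% and 2.63% of the same sets. Both were present in 0.444% of tested genes and in 3.02% of higher genes. The windows of Cd274 and Il2rg hold neither, which says only that these letters are not in this stretch. A match is a description of the sequence, not evidence of binding.

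Irgm1, Gbp7, Igtp and Tgtp1 separated the groups, in part narrowly, and Gbp5 did not. Irgm1 (ENSMUSG00000046879, chromosome 11, 48861968 to 48871683) was at 224, 217, 220.0, 306 and 173 CPM with IgG1 and 437, 541, 546, 308 and 498 CPM with aPD1, a change of 1.03 ± 0.16 (edgeR adjusted p = 0.00117). The groups do not overlap, although aPD1 replicate 4 was only just above IgG1 replicate 4. Gbp7 was at 129.7, 151, 136, 189.7 and 95.1 CPM with IgG1 and 333, 339, 303, 219 and 384 CPM with aPD1 (1.17 ± 0.19, edgeR adjusted p = 0.00117), and its lowest aPD1 library exceeded its highest IgG1 library. Igtp was at 140.0, 157, 234, 245 and 102 CPM with IgG1 and 506, 627, 702, 264 and 617 CPM with aPD1 (1.63 ± 0.29, edgeR adjusted p = 0.00187). Tgtp1 rose by 2.47 ± 0.40, from 9.45, 13.0, 19.7, 18.0 and 5.54 CPM to 67.5, 79.3, 101, 29.1 and 86.1 CPM. Gbp5 rose by 1.58 ± 0.34 with aPD1 replicate 4 inside the IgG1 range, at 71.6 CPM against a highest control of 74.5 CPM. Tgtp1 and the Gbp genes have close copies, and reads matching several places were not counted, so their levels are uncertain. Batf2, a transcription factor of interferon-activated macrophages, rose by 2.17 ± 0.38 (edgeR adjusted p = 0.00174).

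**Figure D2:**
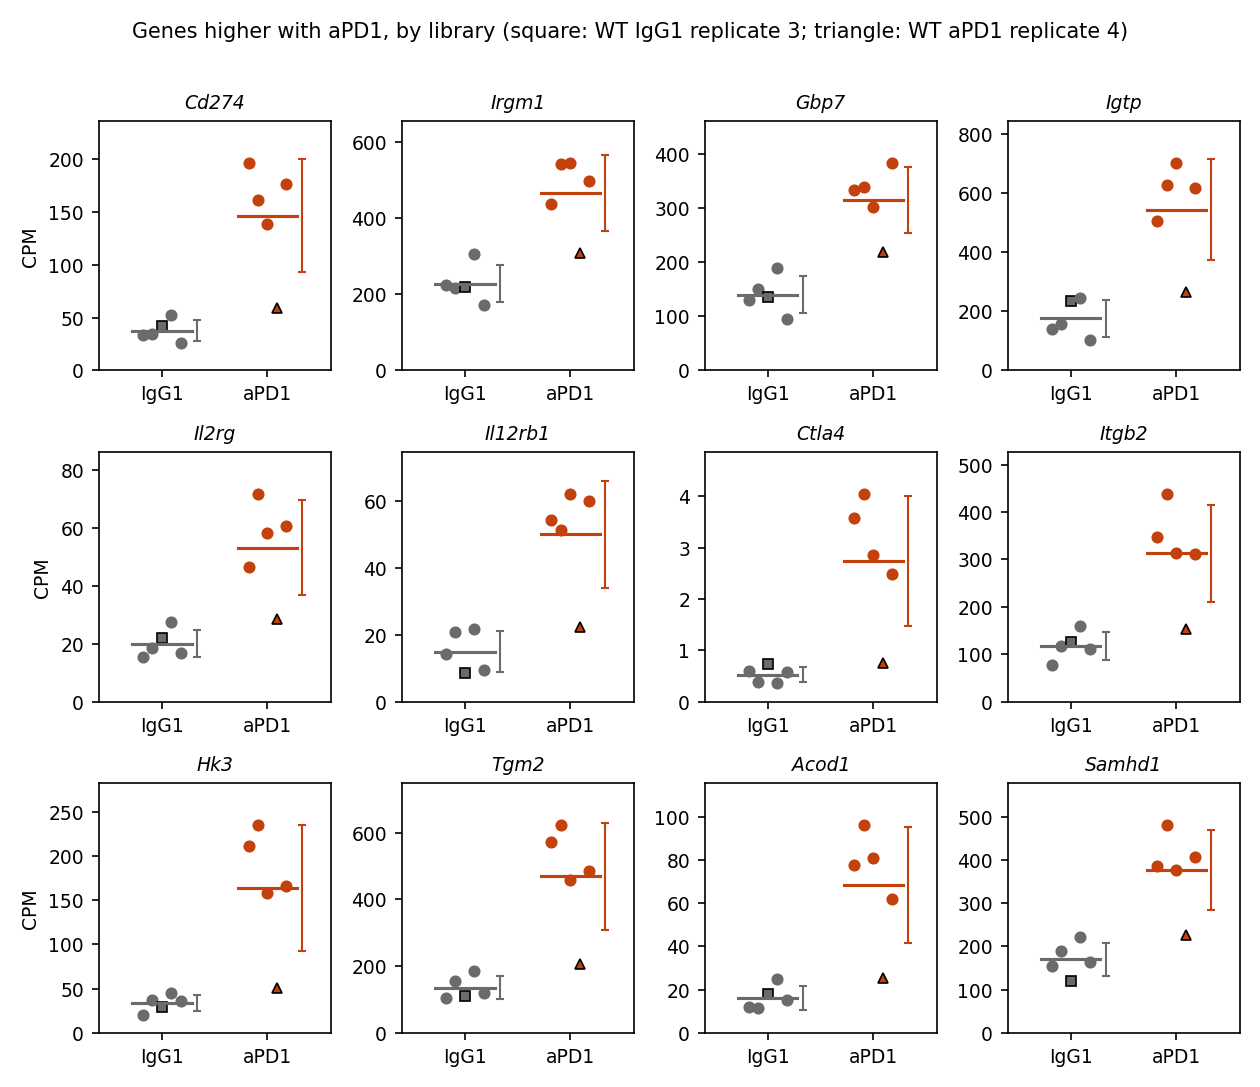
CPM of 12 genes higher with aPD1, 1 point per WT library, with the group mean (line) and SD (error bar, n = 5). In every panel aPD1 replicate 4 (triangle) is the lowest aPD1 library, and in Cd274 it lies at 59.4 CPM against at most 52.6 CPM with IgG1. IgG1 replicate 3 (square) is not an extreme control in most panels.

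Genes of antigen presentation rose in part. In the class II list, 5 of 10 genes were higher (median 1.99), among them Ciita, the transactivator of the class II genes, which rose by 2.89 ± 0.67 (edgeR adjusted p = 0.0122; 0.0514 in the 10 libraries). Ciita was at 2.74, 8.35, 7.22, 8.82 and 4.00 CPM with IgG1 and 50.6, 85.3, 38.9, 6.78 and 47.6 CPM with aPD1. In aPD1 replicate 4 it lay inside the IgG1 range, and 4 aPD1 libraries lay far above it. The count of class II genes ran from 0 (without aPD1 replicate 2) to 9 (without aPD1 replicate 4) when a WT library was left out. In the class I list, 7 of 24 rose (median 0.46), and the count ran from 3 (without aPD1 replicate 2) to 12 (without IgG1 replicate 3). B2m, the light chain of class I, changed by 0.57 ± 0.19 between the groups (IgG1 3089.6 ± 911 CPM, aPD1 4572 ± 728 CPM, SD, n = 5) and did not pass (edgeR adjusted p = 0.0845). None of the 24 type I interferon response genes passed in either direction (median 0.10; 2 rose without IgG1 replicate 4), with Oasl2, a 2-5A synthetase-like gene, at 0.42 ± 0.19 (edgeR adjusted p = 0.232).

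**Figure D3:**
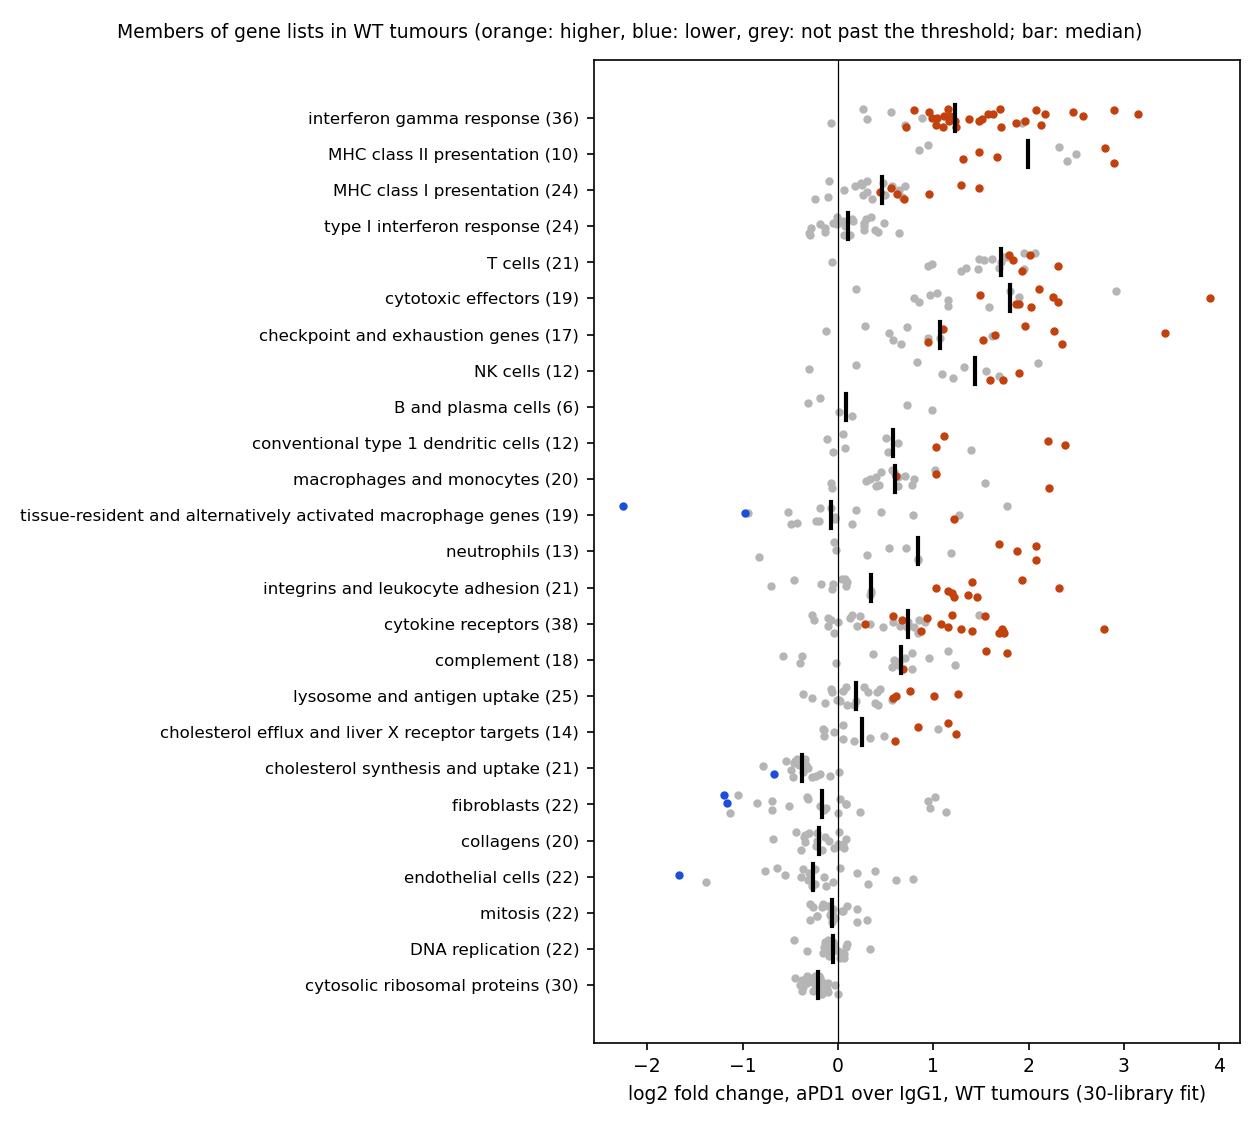
Log2 fold change (aPD1 over IgG1, 30-library fit) of every tested member of 25 gene lists, with the number tested in brackets and the list median as a bar. The interferon gamma list has a median of 1.23 and the type I interferon list one of 0.10. Orange points mark higher genes, blue points lower genes and grey points genes that did not pass.

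T cell genes were measured at low levels. Of 21 T cell genes, 5 were higher and the list median was 1.71. The costimulatory receptor Icos was at 0.928, 0.885, 0.333, 0.413 and 0.703 CPM with IgG1 and 4.58, 5.24, 2.72, 1.18 and 2.91 CPM with aPD1, with no overlap (2.31 ± 0.58, edgeR adjusted p = 0.0195). Cd2, an adhesion receptor of T and natural killer cells, rose by 1.84 ± 0.51, and the adaptor Lat by 1.93 ± 0.46. The count ran from 0 (without aPD1 replicate 2) to 14 (without aPD1 replicate 4) with a WT library left out. Cd8a was at 0.844, 4.37, 1.72, 1.08 and 1.49 CPM with IgG1 and 5.79, 13.6, 5.16, 2.12 and 4.45 CPM with aPD1 (1.74 ± 0.77, edgeR adjusted p = 0.232), and Cd3e changed by 1.69 ± 0.63 (edgeR adjusted p = 0.141). Neither passed, although the fitted changes were near the list median.

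Genes of killing and of inhibitory signalling rose in part. Of 19 cytotoxic effector genes 8 rose (median 1.81), and of 17 checkpoint and exhaustion genes 8 rose (median 1.07). The counts ran from 2 (without aPD1 replicate 2) to 11 (without aPD1 replicate 4) and from 3 (without aPD1 replicate 2) to 11 (without aPD1 replicate 4). Ctla4, an inhibitory receptor of activated and regulatory T cells, was at 0.591, 0.387, 0.722, 0.361 and 0.571 CPM with IgG1 and 3.58, 4.05, 2.85, 0.753 and 2.48 CPM with aPD1 (2.35 ± 0.56, edgeR adjusted p = 0.0151; 0.0445 in the 10 libraries), and the groups did not overlap. Pdcd1, which encodes PD-1, was at 0.633, 1.55, 1.33, 0.413 and 0.615 CPM with IgG1 and 4.19, 8.86, 4.30, 1.41 and 2.64 CPM with aPD1 (2.26 ± 0.58, edgeR adjusted p = 0.0224). Its aPD1 replicate 4 lay inside the IgG1 range. Klrk1, the activating receptor NKG2D, rose by 2.11 ± 0.47, and Tbx21, the T-bet transcription factor, by 2.26 ± 0.53. Prf1, the pore-forming protein perforin, was at 6.71, 3.71, 9.22, 5.06 and 4.79 CPM with IgG1 and 24.7, 25.9, 22.4, 10.2 and 20.0 CPM with aPD1. These groups do not overlap, and the change of 1.81 ± 0.57 passed in the 10-library fit (edgeR adjusted p = 0.0403) but not in the 30-library fit (0.0717).

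Regulatory T cell and natural killer cell lists had fewer genes. Of 6 regulatory T cell genes, 4 rose, with the lineage factor Foxp3 at 0.211, 0.553, 0.222, 0.258 and 0.396 CPM with IgG1 and 1.32, 1.00, 0.905, 0.471 and 1.10 CPM with aPD1 (1.54 ± 0.40, edgeR adjusted p = 0.0246). Of 12 natural killer cell genes, 3 rose (median 1.44), including Il2rb, the beta chain shared by the IL-2 and IL-15 receptors (1.73 ± 0.42), and Txk, a Tec-family kinase (1.59 ± 0.45). The count of regulatory T cell genes ran from 0 (without aPD1 replicate 2) to 4 (without aPD1 replicate 3, aPD1 replicate 4, IgG1 replicate 2 or IgG1 replicate 4) and that of natural killer cell genes from 0 (without aPD1 replicate 2, IgG1 replicate 1 or IgG1 replicate 5) to 3 (without aPD1 replicate 4). None of the 6 B and plasma cell genes passed, and 1 rose without aPD1 replicate 4 or IgG1 replicate 4.

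Many receptors for cytokines rose. Of 38 cytokine receptor genes 16 were higher, none was lower, and the median was 0.73. Il2rg, the common gamma chain of the IL-2, IL-4, IL-7, IL-9, IL-15 and IL-21 receptors (ENSMUSG00000031304, chromosome X, 101264378 to 101268255), was at 15.6, 18.6, 22.1, 27.3 and 16.7 CPM with IgG1 and 46.6, 71.8, 58.4, 28.5 and 60.5 CPM with aPD1. Each aPD1 library was above each IgG1 library, and the change was 1.41 ± 0.23 (edgeR adjusted p = 0.00117; 0.0445 in the 10 libraries). Il12rb1, the chain shared by the IL-12 and IL-23 receptors, was at 14.3, 20.7, 8.67, 21.7 and 9.54 CPM with IgG1 and 54.4, 51.5, 62.2, 22.3 and 59.9 CPM with aPD1 (1.74 ± 0.29, edgeR adjusted p = 0.00124). Its partner Il12rb2, which marks cells able to answer IL-12, rose by 2.79 ± 0.53 from 0.253, 0.332, 0.278, 0.310 and 0.440 CPM to 2.59, 4.96, 1.45, 0.471 and 2.01 CPM. Il4ra, the alpha chain of the IL-4 and IL-13 receptors, rose by 0.87 ± 0.17. The count ran from 9 (without aPD1 replicate 2) to 21 (without aPD1 replicate 4).

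Several cytokines and chemokines changed. Of 31 interleukin, TNF family and colony-stimulating factor genes, 8 rose, and the count ran from 4 (without aPD1 replicate 2 or IgG1 replicate 5) to 11 (without aPD1 replicate 4). Il18bp, a secreted inhibitor of IL-18, was at 11.1, 13.8, 23.2, 29.0 and 11.6 CPM with IgG1 and 85.1, 113, 78.6, 26.6 and 87.4 CPM with aPD1 (2.14 ± 0.36, edgeR adjusted p = 0.00128), with aPD1 replicate 4 again inside the range of the controls. Il27, a cytokine of antigen-presenting cells, rose by 2.12 ± 0.43 without overlap, from 0.169, 0.830, 0.667, 0.877 and 0.440 CPM to 2.98, 3.53, 2.76, 1.08 and 2.28 CPM. Of 25 chemokine genes 4 rose and 1 fell. With a WT library left out, the higher count ran from 0 (without aPD1 replicate 2) to 6 (without aPD1 replicate 4) and the lower count from 0 to 1 (without aPD1 replicate 4, IgG1 replicate 2 or IgG1 replicate 4). Ccl5, which draws T cells and monocytes, rose by 1.45 ± 0.33, and Cxcl10, a ligand of CXCR3, by 0.79 ± 0.19. Cxcl9, another CXCR3 ligand, was at 61.9, 94.2, 124, 91.8 and 71.4 CPM with IgG1 and 300.0, 425, 478, 149.8 and 331 CPM with aPD1. The groups did not overlap, and the change of 1.93 ± 0.57 passed in the 10-library fit (edgeR adjusted p = 0.0401) and missed in the 30-library fit (0.0506). Of 22 NF-kappaB feedback and target genes 5 rose, among them the RNase gene Zc3h12a (0.69 ± 0.15) and Tnip1, a partner of the A20 deubiquitinase (0.43 ± 0.10), and the count ran from 3 (without aPD1 replicate 2, aPD1 replicate 5 or IgG1 replicate 5) to 7 (without aPD1 replicate 4).

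Adhesion receptors of leukocytes rose in part. Of 21 integrin and adhesion genes 9 rose and none fell (median 0.34), and the count ran from 6 (without aPD1 replicate 2) to 9 (without aPD1 replicate 3, aPD1 replicate 4, IgG1 replicate 2 or IgG1 replicate 4). Itgb7, the integrin beta 7 chain, was at 10.5, 13.0, 8.89, 14.9 and 7.91 CPM with IgG1 and 67.2, 92.4, 49.8, 14.5 and 52.3 CPM with aPD1. The other 4 aPD1 libraries were far above every control, aPD1 replicate 4 was just under the highest control, and the change was 2.32 ± 0.36 (edgeR adjusted p = 0.00117; 0.0445 in the 10 libraries). Itgb2, the chain common to the leukocyte integrins LFA-1 and Mac-1, was at 76.6, 118, 126, 159 and 111 CPM with IgG1 and 346, 439, 313, 154 and 312 CPM with aPD1 (1.41 ± 0.24, edgeR adjusted p = 0.00153), again with aPD1 replicate 4 under the highest control. Selplg, the P-selectin ligand, rose by 1.20 ± 0.24 and Icam1, a ligand of LFA-1, by 1.22 ± 0.26. Other chains of leukocyte integrins that rose include Itgal (1.93 ± 0.41) and Itgax (1.36 ± 0.29).

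Dendritic cell genes rose in part. Of 12 genes of conventional type 1 dendritic cells, which present antigen from dead cells on class I, 4 rose, a count that ran from 2 (without aPD1 replicate 2, IgG1 replicate 1 or IgG1 replicate 5) to 5 (without aPD1 replicate 4 or IgG1 replicate 4). Clec9a, a receptor for exposed actin of dead cells, was at 1.05, 2.49, 1.33, 1.65 and 1.19 CPM with IgG1 and 7.00, 10.2, 9.73, 1.88 and 6.14 CPM with aPD1 (2.20 ± 0.37, edgeR adjusted p = 0.00125), and Xcr1, the receptor for XCL1, at 0.295, 1.83, 2.39, 1.44 and 0.615 CPM with IgG1 and 7.77, 12.2, 6.66, 0.895 and 5.51 CPM with aPD1 (2.38 ± 0.62, edgeR adjusted p = 0.0245). In both genes 4 aPD1 libraries were above all controls, and aPD1 replicate 4 lay within the IgG1 range. Of 14 mature dendritic cell genes 3 rose, Cd80, Cd86 and Cd40, which deliver costimulation (Cd80 by 0.89 ± 0.22, Cd86 by 1.26 ± 0.33, Cd40 by 1.20 ± 0.34), while the count ran from 0 (without aPD1 replicate 1, aPD1 replicate 2, IgG1 replicate 2 or IgG1 replicate 5) to 3 (without aPD1 replicate 4, IgG1 replicate 3 or IgG1 replicate 4). The mature list as a whole moved little, with 8 of 14 estimates positive and a median of 0.21. Its summed level was 289 to 443 CPM with IgG1 and 388 to 439 CPM with aPD1. Of 6 genes of conventional type 2 dendritic cells 2 rose, Itgax and Sirpa, the receptor for CD47 (0.72 ± 0.19), both of which macrophages also express. That count ran from 1 (without aPD1 replicate 1, aPD1 replicate 2, IgG1 replicate 1 or IgG1 replicate 5) to 3 (without aPD1 replicate 4). No plasmacytoid dendritic cell gene of 6 passed. Among 14 genes of the chemokine receptor list 1 rose, Xcr1, and 1 fell, against 3.73% and 0.645% of all genes tested. The lower gene was Gpr183, which is a receptor for oxysterols and not for a chemokine. The higher count of this list ran from 0 (without aPD1 replicate 1, aPD1 replicate 2, IgG1 replicate 1 or IgG1 replicate 5) to 2 (without aPD1 replicate 4, IgG1 replicate 3 or IgG1 replicate 4).

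Most macrophage and monocyte genes had positive estimates (18 of 20, against 45.9% of all genes tested), but few passed. Of 20 macrophage and monocyte genes 3 rose (median 0.60), and the summed level was 1838 to 8166 CPM with IgG1 and 3616 to 8241 CPM with aPD1. The count ran from 1 (without aPD1 replicate 2) to 11 (without IgG1 replicate 3). The pan-macrophage receptor Adgre1 did not pass, with a change of 0.43 ± 0.23 (edgeR adjusted p = 0.311). Fcgr4, an activating Fc receptor, was at 14.5, 34.7, 78.3, 58.2 and 29.9 CPM with IgG1 and 213, 314, 229.8, 50.6 and 190.4 CPM with aPD1 (2.21 ± 0.48, edgeR adjusted p = 0.00767). Of 18 monocyte-derived inflammatory genes 4 rose, with Ly6i, a GPI-anchored surface protein with close relatives in the Ly6 cluster, at 0.759, 0.996, 1.11, 1.08 and 0.835 CPM with IgG1 and 10.9, 11.6, 7.20, 1.51 and 6.73 CPM with aPD1 (2.99 ± 0.60, edgeR adjusted p = 0.00433). The count of this list ran from 2 (without aPD1 replicate 2 or IgG1 replicate 5) to 5 (without aPD1 replicate 4).

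A pair of genes of resident macrophages fell. Of 19 genes of resident and alternatively activated macrophages 2 fell (median -0.07). Fcrls, an Fc receptor-like scavenger receptor of resident macrophages, was at 25.7, 55.8, 152, 88.9 and 126 CPM with IgG1 and 8.93, 10.1, 15.4, 46.0 and 13.7 CPM with aPD1 (-2.25 ± 0.48, edgeR adjusted p = 0.006). The 4 aPD1 libraries other than replicate 4 lay below every control, and the controls themselves differed widely. The count of lower genes of the list ran from 1 to 2 (without aPD1 replicate 4, IgG1 replicate 2 or IgG1 replicate 4), being 1 without IgG1 replicate 3 or aPD1 replicate 2, and 1 gene of the list rose, a count that ran from 1 to 2 (without aPD1 replicate 4). Pf4, a chemokine of platelets and macrophages, fell by 0.97 on the log2 scale (edgeR adjusted p = 0.0348), from 12.7, 12.1, 19.1, 11.7 and 14.7 CPM to 4.47, 5.91, 6.61, 13.5 and 5.20 CPM. Mrc1, the mannose receptor CD206, missed the threshold with a change of -0.53 ± 0.31 (edgeR adjusted p = 0.376). Ccl8, a monocyte attractant, was at 8.01, 7.91, 12.5, 5.98 and 9.32 CPM with IgG1 and 41.7, 42.3, 32.9, 12.7 and 20.6 CPM with aPD1 without overlap, and passed only in the 10-library fit (1.78 ± 0.58 in the 30-library fit, edgeR adjusted p = 0.0798; 0.0448 in the 10 libraries).

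Genes listed for neutrophils rose in part. Of 13 genes of the neutrophil list 4 rose (median 0.84), and the count ran from 4 to 5 (without aPD1 replicate 4, IgG1 replicate 1 or IgG1 replicate 3). They were Clec4d, a C-type lectin of myeloid cells (1.87 ± 0.34), the membrane-bound protease Mmp25 (2.08 ± 0.40), Csf3r, the receptor for G-CSF (1.69 ± 0.33), and Acod1, which makes itaconate (2.08 ± 0.46). The defining marker Ly6g was at 0 in 9 of the 10 WT libraries. Of 21 Fc receptor and C-type lectin genes 6 rose and 1 fell, with the inhibitory receptor Fcgr2b at 0.83 ± 0.18 (edgeR adjusted p = 0.00897). The higher count ran from 4 to 10 (without IgG1 replicate 3).

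Complement and lysosome genes were partly higher. Of 18 complement genes 3 rose (median 0.66), and the count ran from 2 to 7 (without aPD1 replicate 4). C3, the central component, was at 46.1, 43.4, 27.0, 73.4 and 31.3 CPM with IgG1 and 156, 268, 114, 61.0 and 158 CPM with aPD1 (1.78 ± 0.31, edgeR adjusted p = 0.00187). C4b, a component of the classical pathway, was at 15.8, 25.2, 9.89, 25.5 and 12.9 CPM with IgG1 and 51.7, 73.1, 55.3, 27.4 and 53.5 CPM with aPD1, with no overlap (1.55 ± 0.33, edgeR adjusted p = 0.00606). Of 25 lysosomal genes 5 rose, with Psap, the precursor of the saposins, from 1716, 1523, 2056, 2371 and 1541 CPM to 3412, 3959, 3152, 1925 and 3140.2 CPM (0.76 ± 0.17, edgeR adjusted p = 0.0104) and the cysteine protease Ctss by 1.26 ± 0.31. The count ran from 0 (without aPD1 replicate 2) to 7 (without aPD1 replicate 4 or IgG1 replicate 4). Of 36 tumour protease and inhibitor genes 4 rose and 2 fell, the clearest being the aminopeptidase Anpep at 20.6, 23.1, 12.7, 32.2 and 29.8 CPM with IgG1 and 65.3, 59.2, 56.7, 41.3 and 59.6 CPM with aPD1 (1.25 ± 0.27, edgeR adjusted p = 0.00696). The higher count of the list ran from 2 to 7 (without aPD1 replicate 4) and the lower count from 0 (without aPD1 replicate 1, aPD1 replicate 2, aPD1 replicate 5 or IgG1 replicate 1) to 4 (without aPD1 replicate 4). The higher count was 2 without aPD1 replicate 2 or IgG1 replicate 3.

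Acod1 and Hk3 rose, and a single gene of the glycolysis list did. Acod1, whose product itaconate inhibits succinate dehydrogenase, was at 11.8, 11.5, 17.9, 24.8 and 14.9 CPM with IgG1 and 77.6, 96.3, 81.1, 25.2 and 62.1 CPM with aPD1 (edgeR adjusted p = 0.00793; 0.0403 in the 10 libraries), and the lowest aPD1 library was just above the highest control. Hk3, the hexokinase of myeloid cells, was at 19.9, 37.2, 29.2, 44.4 and 35.8 CPM with IgG1 and 211, 235, 158, 50.2 and 166 CPM with aPD1. The groups did not overlap (2.30 ± 0.37, edgeR adjusted p = 0.00117), and the gene stands in none of the lists. In the glycolysis list 1 of 19 genes rose, Pfkfb3, which makes the activator of phosphofructokinase (1.31 ± 0.27, edgeR adjusted p = 0.00461). Over all genes tested, 3.73% were higher. No gene of the hypoxia response (20), of the nuclear (28) or of the mitochondrially encoded (7) respiratory chain passed.

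Enzymes that use amino acids and nucleotides rose in part. Of 23 genes 6 rose, and the count ran from 2 (without aPD1 replicate 2 or IgG1 replicate 5) to 6 (without aPD1 replicate 4 or IgG1 replicate 4). Ido1, which starts the breakdown of tryptophan, was at 0.380, 0.277, 0.5, 0.310 and 0.352 CPM with IgG1 and 3.80, 2.53, 4.57, 1.22 and 4.09 CPM with aPD1 and had the smallest adjusted p of all genes (3.14 ± 0.37, edgeR adjusted p = 7.58e-06). Samhd1, which destroys deoxynucleotides, was at 155, 189, 120.2, 221 and 163 CPM with IgG1 and 387, 481, 378, 227 and 408 CPM with aPD1, without overlap (1.15 ± 0.19, edgeR adjusted p = 0.00117). Ass1, an enzyme that regenerates arginine, rose by 1.63 ± 0.39. Slc7a2, a transporter of arginine and lysine, was at 19.1, 11.8, 20.7, 22.3 and 18.1 CPM with IgG1 and 60.6, 44.3, 47.6, 30.3 and 50.7 CPM with aPD1. Slc7a2 separated the groups and passed in the 10-library fit (edgeR adjusted p = 0.0401) but not in the 30-library fit (0.0884). Of 19 oxidative burst genes 3 rose, among them Ncf1 and Cybb, subunits of the phagocyte NADPH oxidase (Ncf1 by 0.86 ± 0.21, Cybb by 1.06 ± 0.29), and the count ran from 0 (without aPD1 replicate 2 or IgG1 replicate 1) to 4 (without IgG1 replicate 3). Of 15 iron genes 2 rose, the phagosomal iron exporter Slc11a1 (1.63 ± 0.32) and the ferritin heavy chain Fth1 (0.73 ± 0.18), a count that ran from 1 (without aPD1 replicate 1, aPD1 replicate 2 or IgG1 replicate 5) to 3 (without IgG1 replicate 3).

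Genes of cholesterol export rose in part, and a single gene of cholesterol synthesis fell. Of 14 cholesterol efflux and liver X receptor target genes 4 rose and none fell (median 0.25), and the count ran from 3 to 5 (without aPD1 replicate 4). Abcg1, a sterol exporter, was at 13.9, 19.1, 20.8, 28.1 and 19.0 CPM with IgG1 and 42.3, 73.7, 45.2, 21.1 and 55.5 CPM with aPD1 (1.24 ± 0.25, edgeR adjusted p = 0.00441). Abca1, which loads cholesterol onto apolipoprotein A-I, was at 52.4, 88.7, 57.3, 123 and 92.3 CPM with IgG1 and 205, 242, 127, 121 and 225 CPM with aPD1 (1.16 ± 0.25, edgeR adjusted p = 0.00801). Mylip, the ligase that degrades the LDL receptor, rose by 0.84 ± 0.18. Of 21 synthesis and uptake genes 1 fell, Cyp51, a sterol demethylase, at 131, 161, 269, 162 and 190.2 CPM with IgG1 and 91.3, 107, 128, 149 and 97.5 CPM with aPD1 (-0.67 ± 0.19, edgeR adjusted p = 0.0434). The other members did not pass, and 20 of the 21 estimates were negative, against 54.1% of all genes tested. The median was -0.38. The lower count ran from 0 to 2 (without aPD1 replicate 4 or IgG1 replicate 4) and was 0 without IgG1 replicate 3. Of 17 fatty acid genes 1 rose, the acyl-CoA synthetase Acsl1 (0.90 ± 0.17, edgeR adjusted p = 0.00281), against 3.73% of all genes tested. Without aPD1 replicate 4 the list had 2 higher and 2 lower genes.

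Genes outside all lists made up most of the calls. Tgm2, a protein cross-linking transglutaminase, was at 105, 155, 109, 185 and 119 CPM with IgG1 and 572, 624, 459, 207 and 486 CPM with aPD1 (1.80 ± 0.29, edgeR adjusted p = 0.00117; 0.0401 in the 10 libraries). Slco3a1, an organic anion transporter, was at 8.52, 11.9, 6.06, 14.2 and 9.71 CPM with IgG1 and 45.7, 62.5, 32.2, 15.3 and 37.0 CPM with aPD1, and again the groups did not overlap (1.93 ± 0.29, edgeR adjusted p = 0.000951). Inpp5j, an inositol polyphosphate phosphatase, was at 0.380, 0.830, 0.5, 1.03 and 0.440 CPM with IgG1 and 11.3, 16.6, 5.61, 1.88 and 8.70 CPM with aPD1 and rose by 3.81 ± 0.60. Dnase1l3, a secreted DNase of myeloid cells, was at 1.22, 2.54, 4.56, 3.87 and 2.15 CPM with IgG1 and 43.2, 48.5, 37.8, 4.14 and 27.2 CPM with aPD1. Its aPD1 replicate 4 was inside the control range and the other 4 aPD1 libraries were far above it (3.50 ± 0.58, edgeR adjusted p = 0.00123). Ifitm1, a membrane protein induced by interferon, was at 6.62, 4.59, 4.33, 4.95 and 4.31 CPM with IgG1 and 58.1, 54.7, 35.4, 8.34 and 33.2 CPM with aPD1 (2.93 ± 0.50, edgeR adjusted p = 0.00128).

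Further genes outside the lists rose as well. Apol6, an apolipoprotein L, rose by 2.32 ± 0.35 and Scarf1, a scavenger receptor that takes up apoptotic cells, by 1.56 ± 0.25, both without overlap. Nod2, a sensor of bacterial muramyl dipeptide, rose by 1.41 ± 0.23, Ikbke, a kinase of innate signalling, by 1.01 ± 0.17, and Gpr132, a receptor of activated leukocytes, by 1.64 ± 0.28. Bst1, an ADP-ribosyl cyclase of the surface of myeloid and stromal cells, rose by 2.10 ± 0.44, and Sema4a, a semaphorin of immune cells, by 1.78 ± 0.36. Single genes of some other lists rose too. Cdh1, which encodes E-cadherin, was at 4.94, 4.37, 4.28, 5.73 and 5.63 CPM with IgG1 and 14.0, 9.77, 15.4, 6.55 and 14.0 CPM with aPD1, with every aPD1 library above every control (1.26 ± 0.29, edgeR adjusted p = 0.0108; 0.0445 in the 10 libraries). It was the only gene of 7 tested epithelial genes that passed. Mbp, the myelin basic protein gene, rose by 1.13 ± 0.21 and was the only gene called of 8 nerve genes. Nlrp3, the inflammasome sensor, was at 7.55, 9.13, 5.83, 12.5 and 7.6 CPM with IgG1 and 25.5, 30.4, 19.9, 11.3 and 18.3 CPM with aPD1 (1.31 ± 0.24, edgeR adjusted p = 0.00212). With Ninj1, which ruptures the membrane of dying cells, and the necroptosis kinase Ripk3 it made up the 3 of 25 cell death genes that rose. The count ran from 1 to 8 (without IgG1 replicate 3), being 1 without aPD1 replicate 2.

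Few genes fell, and only 3 did so in both fits. Bace2, an aspartic protease related to beta-secretase (ENSMUSG00000040605, chromosome 16, 97356742 to 97442936), was at 1.94, 1.6, 1.28, 1.5 and 1.32 CPM with IgG1 and 0.662, 0.619, 0.317, 0.612 and 0.512 CPM with aPD1 (-1.5 ± 0.25, edgeR adjusted p = 0.00118; 0.0403 in the 10 libraries). Its groups were apart, with aPD1 replicate 4 in the middle of its own group. Kcne3, an accessory subunit of potassium channels (ENSMUSG00000035165, chromosome 7, 100176502 to 100184869), was at 5.02, 4.54, 4.72, 2.06 and 2.42 CPM with IgG1 and 0.221, 0.429, 0.724, 1.55 and 0.433 CPM with aPD1 (-2.46 ± 0.45, edgeR adjusted p = 0.00231). Gpr183, the oxysterol receptor EBI2 that positions lymphocytes and dendritic cells (ENSMUSG00000051212, chromosome 14, 121952551 to 121965195), was at 4.47, 5.20, 9.34, 6.45 and 6.29 CPM with IgG1 and 1.54, 2.24, 2.49, 3.25 and 1.97 CPM with aPD1 (-1.45 ± 0.29, edgeR adjusted p = 0.00394). In all 3 genes, every aPD1 library was below every control, and the call held in each fit that left out a WT library.

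The lower genes named next are outside the lists, with at least 5 CPM and the smallest p, and each fell by under 1 on the log2 scale. Kcne3 and Bace2, also outside the lists but at lower levels, fell further. Fkbp9, a prolyl isomerase of the endoplasmic reticulum, was at 375, 370.3, 419, 392 and 333 CPM with IgG1 and 263, 299, 306, 321 and 273 CPM with aPD1, a change of -0.37 ± 0.07 (edgeR adjusted p = 0.00403). Nxn, the redox protein nucleoredoxin, was at 68.0, 47.9, 57.6, 50.5 and 53.5 CPM with IgG1 and 40.7, 41.6, 44.1, 42.3 and 42.4 CPM with aPD1 (-0.39 ± 0.08, edgeR adjusted p = 0.00628). In both genes the aPD1 libraries lay below all controls with little spread among them. Haus7, a subunit of the augmin complex of the spindle, was at 104, 127, 213, 124 and 122 CPM with IgG1 and 55.9, 60.2, 79.1, 112 and 67.8 CPM with aPD1 (-0.88 ± 0.20, edgeR adjusted p = 0.00924), with aPD1 replicate 4 inside the IgG1 range. Fkbp14, a second isomerase of the endoplasmic reticulum, was at 25.1, 26.1, 43.9, 26.1 and 19.3 CPM with IgG1 and 12.4, 16.1, 21.2, 21.0 and 15.2 CPM with aPD1 (-0.71 ± 0.17, edgeR adjusted p = 0.0168). The methionine sulfoxide reductase Msrb3 (-0.47 ± 0.11), the mitochondrial ornithine transporter Slc25a15 (-0.42 ± 0.10) and the acetyl-CoA synthetase Acss2 (-0.50 ± 0.12) fell as well. IgG1 replicate 3 was the highest control for 57 of the 100 lower genes, and 61 genes were lower when it was left out.

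**Figure D4:**
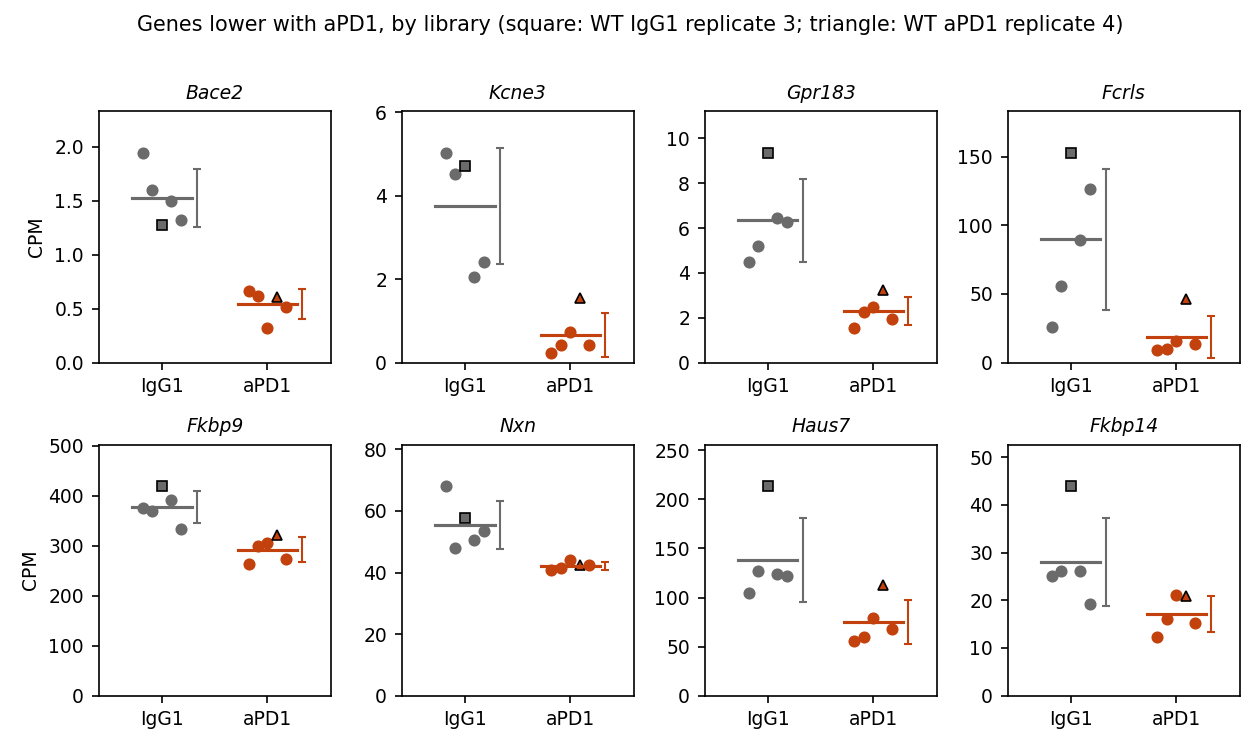
CPM of 8 genes lower with aPD1, 1 point per WT library, with the group mean (line) and SD (error bar, n = 5). Bace2 lies at 1.28 to 1.94 CPM with IgG1 and at 0.317 to 0.662 CPM with aPD1, and IgG1 replicate 3 (square) is the highest control in Gpr183, Fcrls, Fkbp9, Haus7 and Fkbp14.

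Stromal and vascular genes fell in small numbers. Of 22 fibroblast genes 2 fell, Mfap4, a microfibril protein, at 21.3, 19.1, 21.3, 31.9 and 14.2 CPM with IgG1 and 4.63, 13.1, 8.65, 12.6 and 8.03 CPM with aPD1 (-1.19 ± 0.35, edgeR adjusted p = 0.0451) and Aspn, a small leucine-rich proteoglycan (-1.17 ± 0.34, edgeR adjusted p = 0.0446). Of 28 vascular remodelling genes 1 fell and of 22 endothelial genes 1 fell, in both lists the endothelin receptor Ednrb (-1.66 ± 0.41, edgeR adjusted p = 0.0175), and of 11 pericyte genes 2 fell, Kcnj8 and Abcc9, the subunits of a potassium channel of pericytes (-1.10 ± 0.31 and -1.04 ± 0.30). All of these were lost in at least 1 fit that left out a WT library. The counts ran from 0 to 3 (without aPD1 replicate 4) for fibroblast genes, from 0 (without aPD1 replicate 1, aPD1 replicate 2, aPD1 replicate 5 or IgG1 replicate 1) to 1 for vascular remodelling genes, from 0 (without aPD1 replicate 1, aPD1 replicate 2, aPD1 replicate 5 or IgG1 replicate 1) to 2 (without IgG1 replicate 3 or IgG1 replicate 4) for endothelial genes and from 0 to 2 (without aPD1 replicate 4 or IgG1 replicate 4) for pericyte genes. None of 20 collagen genes passed (median -0.20), with Col6a1 at -0.35 ± 0.19 (edgeR adjusted p = 0.33). Mest, an imprinted hydrolase gene, was the only one of 14 imprinted growth genes to pass, at 7.09, 12.1, 4.89, 3.51 and 8.92 CPM with IgG1 and 0.937, 2.05, 1.49, 4.66 and 1.18 CPM with aPD1 (-1.82 ± 0.52, edgeR adjusted p = 0.0407), with aPD1 replicate 4 inside the IgG1 range, and the count ran from 0 to 2 (without aPD1 replicate 4). Cdkn2b, an inhibitor of cyclin-dependent kinases and the only gene called of 19 in its list, fell by 0.61 on the log2 scale (edgeR adjusted p = 0.0211) with all aPD1 libraries below all controls, at 32.7, 38.1, 42.4, 35.8 and 41.5 CPM with IgG1 and 20.0, 19.0, 31.9, 32.0 and 21.7 CPM with aPD1. Its list had from 0 (without aPD1 replicate 1, aPD1 replicate 2, aPD1 replicate 5 or IgG1 replicate 5) to 2 (without aPD1 replicate 4) lower genes when a WT library was left out.

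Proliferation, protein turnover and stress genes did not pass. None of 22 mitosis genes (median -0.06), 22 replication genes (median -0.05), 28 constitutive proteasome genes, 17 unfolded protein response genes, 17 integrated stress response genes or 14 heat shock genes was called. The 30 ribosomal protein genes had a median of -0.21, every estimate was negative and none passed. Their summed level was 24328 to 43408 CPM with IgG1 and 23198 to 31169 CPM with aPD1, with IgG1 replicate 3 the highest library. None of 19 TGF-beta, 18 Wnt, 7 mast cell, 8 adipocyte, 14 skeletal muscle, 4 keratinocyte or 5 erythroid genes passed. The summed level of the skeletal muscle list was 15.8 to 723 CPM with IgG1 and 5.43 to 564 CPM with aPD1. Of 22 immediate early genes 2 rose, Fosb (1.69 ± 0.43) and the RNA-binding feedback gene Zfp36 (0.65 ± 0.16), and the count ran from 0 (without aPD1 replicate 2) to 2. A call that was not made at this depth and spread does not show that a gene stayed the same.

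Whether the effect in WT tumours differed from that in the knockout tumours was tested directly, as the WT effect minus the mean of the B2mKO and Jak1KO effects, which share no libraries. The difference passed for 62 genes in the positive and 8 in the negative direction (0.4% and 0.0516% of genes tested), and 69 of these were among the 679 genes called in WT tumours. The targeted genes were at lower levels in the mutant tumours, B2m at 617 ± 112 CPM in B2mKO IgG1 libraries against 3089.6 ± 911 CPM in WT, and Jak1 at 71.5 ± 4.98 CPM in Jak1KO IgG1 libraries against 232 ± 28.7 CPM in WT (SD, n = 5). Gbp7 had a difference of 1.38 ± 0.23 (edgeR adjusted p = 0.0234), with effects of -0.33 ± 0.18 in B2mKO and -0.09 ± 0.19 in Jak1KO tumours. For Cd274 the difference was 2.02 ± 0.35 (edgeR adjusted p = 0.0234; -0.24 ± 0.28 in B2mKO and 0.12 ± 0.28 in Jak1KO). Il2rg differed by 1.5 ± 0.27 and Irgm1 by 1.11 ± 0.20. Kcne3 differed in the other direction, by -2.84 ± 0.53 (edgeR adjusted p = 0.0234), with 0.87 ± 0.36 in B2mKO and -0.11 ± 0.42 in Jak1KO tumours. Ttc39b, a tetratricopeptide repeat gene, differed by 0.56 ± 0.10 on a WT change of 0.47 ± 0.09, its WT libraries being at 74.8, 80.4, 60.4, 70.8 and 69.0 CPM with IgG1 and 103, 103, 92.4, 94.4 and 99.4 CPM with aPD1.

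For the remaining genes the difference did not pass, which does not show equal effects. Ifng differed by 3.00 ± 1.27 (edgeR adjusted p = 0.274), with 1.26 ± 1.43 in B2mKO tumours, and Pdcd1lg2 by 2.83 ± 0.76 (edgeR adjusted p = 0.0914), with 1.45 ± 0.62 in B2mKO and -0.26 ± 0.63 in Jak1KO tumours. Over the 579 genes higher in WT tumours, the median effect was 0.098 in B2mKO and 0.07 in Jak1KO tumours, and over the 100 lower genes it was 0.0665 and -0.00134. These genes were chosen for their WT effect, so the smaller knockout medians are a description. The number of genes past the threshold for the difference was 0 without aPD1 replicate 2 or 5 or IgG1 replicate 1 or 5, 355 without aPD1 replicate 4, and 26 without IgG1 replicate 3 and B2mKO aPD1 replicate 2 together, the library with the lowest quality weight among the knockouts.

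**Figure D5:**
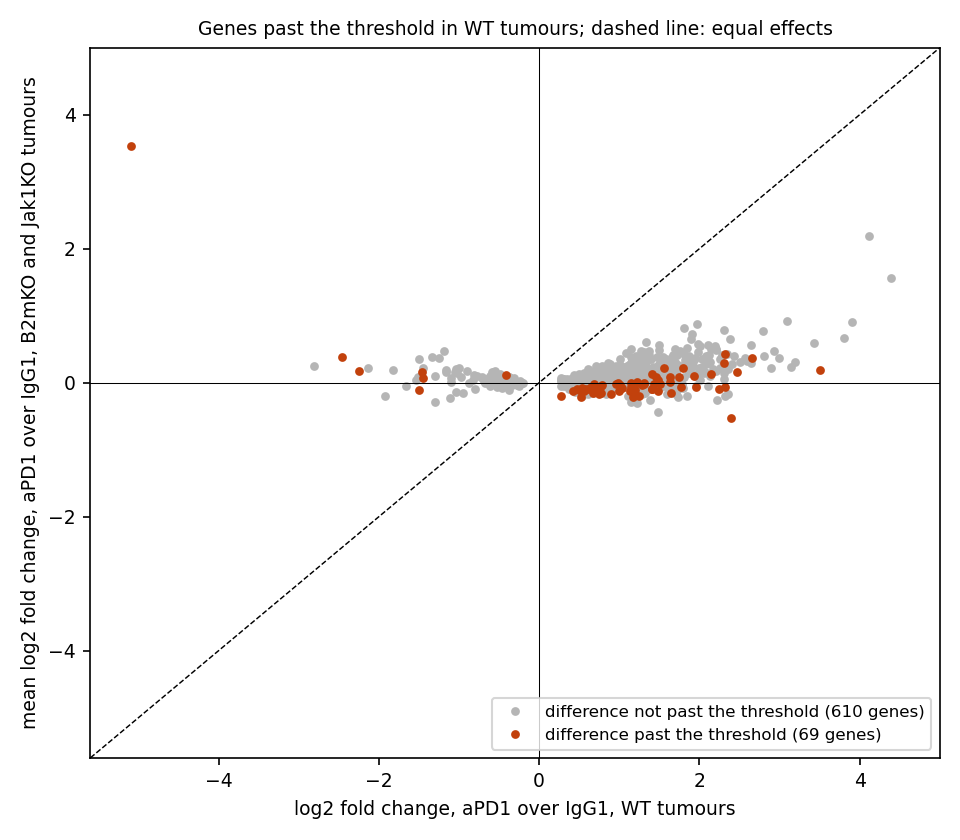
Effect of aPD1 in WT tumours (horizontal, log2 fold change) against the mean of the effects in B2mKO and Jak1KO tumours (vertical) for the 679 genes called in WT tumours, with equal effects on the dashed line. Orange points are the 69 genes whose difference passed the threshold and grey points the other 610. The point at the far left is Myh7, a cardiac and slow muscle myosin gene at 42.8 CPM in IgG1 replicate 2 and at most 0.879 CPM in the other 9, replicate 2 being the control library with the highest muscle transcripts, and named here after its value was seen.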

How the data were processed

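The authors' deposited files hold raw read counts per gene, made with featureCounts 2.0.0 on the Ensembl release 99 annotation of GRCm38, per the file headers. The header command sets no strand, pairing or multi-mapping option, so reads matching several places or several genes were left out and mates were counted as single reads. Tools in the submitters' processing notes are STAR 2.5.2a with mm10, edgeR 3.24.3, Cufflinks 2.2.1 and FastQC 0.11.2, and the labels' protocols name a TruSeq RNA kit and paired-end reads. Exon lengths, in bases, are those deposited by the authors beside the counts.

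Here edgeR 4.0.16 (R 4.3.3) fitted a quasi-likelihood model with 1 mean per genotype and antibody to all 30 libraries after filterByExpr (minimum count 10, minimum total 15) and TMM scaling, with robust dispersion, and p-values were adjusted by Benjamini-Hochberg across every gene in the fit. The model was fitted again to the 10 WT libraries alone, and a contrast gave the WT effect minus the mean knockout effect. DESeq2 1.42.0, limma 3.58.1 (voom, with and without quality weights), other scaling and filtering, a replicate block and leaving out each WT library were the alternatives. The scripts were tested on simulated counts. Total counts were 17833233 to 25658875 per WT library, and the median standard error of a log2 change was 0.171.

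Groups were taken from the sample titles. Symbols were found for 55144 of 55471 gene identifiers, and the remaining 327 held 0.047% of counts. Named genes are the immune genes of the treatment (Cd274, Pdcd1, Pdcd1lg2, Ifng, Cd8a, B2m, Jak1), up to 25 genes in each direction called in both fits with a mean of at least 1 CPM, up to 12 in each direction outside the lists with at least 5 CPM, up to 4 members of each list with the smallest p and the first 2 expressed, and the 6 genes with the smallest p for the difference from the knockouts. Predicted genes were counted and not named, and some other genes are not reported here. Cd2, Cxcl9, Gbp5, Igtp, Slc7a2 and Myh7 fall outside this rule and were chosen after their values were seen, as were the promoters printed. The comparison and the gene lists were chosen with earlier results of these data known.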

Additional observations from a re-analysis of the deposited data

Results flagged for a closer look

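The effect of aPD1 in WT tumours differed from the mean effect in the knockout tumours (edgeR adjusted p under 0.05) for 31 of the genes named. All values are WT effect minus knockout effect on the log2 scale ± standard error. Among genes of the interferon gamma response list, the difference was 2.02 ± 0.35 for Cd274, 1.38 ± 0.23 for Gbp7, 1.54 ± 0.35 for Igtp, 1.11 ± 0.20 for Irgm1 and 2.31 ± 0.50 for Tgtp1. Among the other genes with a positive difference, it was 2.39 ± 0.55 for Apol6, 1.21 ± 0.23 for Samhd1, 2.02 ± 0.43 for Il18bp, 1.5 ± 0.27 for Il2rg, 1.66 ± 0.35 for Il12rb1, 1.28 ± 0.29 for Itgb2, 1.89 ± 0.44 for Itgb7, 1.63 ± 0.35 for Gpr132 and 1.33 ± 0.30 for Scarf1. It was also 1.5 ± 0.29 for Nod2, 1.30 ± 0.29 for Nlrp3, 1.05 ± 0.21 for Ikbke, 0.79 ± 0.18 for Zc3h12a, 1.84 ± 0.38 for C3 and 3.31 ± 0.76 for Dnase1l3. It was further 2.01 ± 0.44 for Hk3, 1.59 ± 0.34 for Tgm2, 1.44 ± 0.33 for Anpep, 1.83 ± 0.34 for Slco3a1 and 0.56 ± 0.10 for Ttc39b. Negative differences were found for Kcne3 at -2.84 ± 0.53, Fcrls at -2.43 ± 0.57, Gpr183 at -1.53 ± 0.35, Bace2 at -1.40 ± 0.32, Slc25a15 at -0.53 ± 0.12 and Myh7 at -8.62 ± 1.94. The Myh7 value rests on IgG1 replicate 2.

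In a group of 5, a library lay far from the other 4 for 19 gene and group pairs of the 252 looked at. The test was the gap to the nearest library over the whole range, with a critical value of 0.71. For independent, normally distributed values this gives about 1 in 20. CPM values may be skewed and genes of a library may move together, so that rate need not hold here. In aPD1 replicate 4, Fcrls (46.0 CPM), Ednrb (5.84 CPM), Pf4 (13.5 CPM) and Mrc1 (76.8 CPM) were far above the other aPD1 libraries, and Gbp5 (71.6 CPM) and Il12rb1 (22.3 CPM) far below. In IgG1 replicate 3, Haus7 (213 CPM) and Fkbp14 (43.9 CPM) were high and Jak1 (182 CPM) low. In IgG1 replicate 4, Oasl2 (356 CPM) and Tnip1 (46.3 CPM) were high and Kcnj8 (1.70 CPM) low. Muscle genes stood out in both replicates numbered 2, with Acta1 at 319 CPM and Myh7 at 42.8 CPM in the IgG1 library and Acta1 at 162 CPM in the aPD1 library. Cd8a was also high in IgG1 replicate 2, at 4.37 CPM. The others were Ifitm1 in IgG1 replicate 1 (6.62 CPM), Dcn in aPD1 replicate 1 (537 CPM, low) and Krt8 in aPD1 replicate 3 (4.26 CPM).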

How the results depend on the processing

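The number of genes called in WT tumours (679) was 448 with no filter beyond 1 count, 55 with the 10 WT libraries alone and 1476 with voom quality weights, and 230 to 1107 when a WT library was left out. It was 683 with RLE size factors, 925 with DESeq2, 605 with limma voom and 930 without the libraries that stand apart (IgG1 replicate 3 and B2mKO aPD1 replicate 2). In the 10 libraries alone (55 genes) the count was 100 without the filter, 577 with DESeq2, 0 with limma voom (1622 genes at an unadjusted p under 0.05), 1096 with voom quality weights and 0 to 563 when a library was left out. Without IgG1 replicate 3, an alternative added after seeing the data, DESeq2 called 836 and limma voom 0 (2027 unadjusted). For the difference from the knockouts (70 genes) it was 13 without the filter, 252 with DESeq2, 26 with limma voom, 0 to 355 when a WT library was left out and 26 without the libraries that stand apart, of which 19 were among the 70, also added after seeing the data. The replicate block gave 564 genes in the 30-library fit (548 of the 679 kept), 5 in the 10-library fit and 18 for the difference. Same-numbered aPD1 and IgG1 libraries correlated at 0.0781, 0.339, 0.464, -0.0722 and -0.147 in their deviations from the group means. Libraries with different numbers correlated at -0.425 to 0.426, so these values cannot decide whether the numbers mark pairs. The numbers were not taken as pairs because the labels do not say that they mark a shared litter, cage or day. No called gene changed sign in these fits. Of the 126 tested genes named, the number that lost its call was 69 in the 10 libraries alone, 0 with DESeq2, 13 with limma voom, 5 with the block and 0 to 40 when a WT library was left out. The change of Jak1 in WT tumours, which did not pass at 0.04, was at -0.035 with quality weights, -0.0365 without the libraries that stand apart and -0.0358 (without IgG1 replicate 3) to 0.0753 when a WT library was left out. Acta1 in WT tumours (-1.11) ran from -3.33 to 0.62 (without IgG1 replicate 2) and Krt8 in WT tumours (3.16) from -0.46 (without aPD1 replicate 3) to 3.58. The cause of these shifts was not tested. Genes under about 1 CPM, such as Ifng, rest on few counts per library.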
